A study of Mus musculus with 2 samples.

Results

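The 41 genes considered here are a hand-chosen list of mouse genes whose loss or altered function causes inherited deafness in humans or in mutant mice, and they act in hair cells, supporting epithelium, the lateral wall and mitochondria of the cochlea. Members were taken by name: a non-control spot had to carry the member's symbol, which held for 37 of the 41. Of these, 36 genes had at least 1 probe well above background on both arrays, out of 26533 genes measured in all. Cochlear RNA was hybridised to 1-colour Agilent mouse expression arrays, which read 1 Cy3-labelled sample each. The noise sample came from female C57BL/6 mice aged 7 weeks that had 2 hours of intense noise and were dissected 3 hours later. The baseline sample came from female C57BL/6 mice of the same age without noise exposure. There was 1 array per group, so no replicate error exists, no test across animals could be made, and the number of mice behind each sample is not given in the labels used here.

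Hair cells turn sound into electrical signals through a bundle of actin-filled stereocilia, whose core, taper, links and membrane are each built by dedicated proteins. The lateral wall, made of fibrocytes and the stria vascularis, maintains the potassium-rich endolymph that drives the hair cell current. Mutations in genes of either compartment cause deafness, some when 1 copy is altered (dominant) and others when both are lost (recessive). In bulk cochlear RNA, fewer cells of a type and less RNA per cell cannot be told apart.

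Probes of 1 gene often gave different ratios, so the probes behind several of the results are shown first, 5′ to 3′ as printed on the array. Coordinates are mm9, per the file headers, and the exon or untranslated position of a probe was not annotated here because no annotation of that build was used. Probes whose genomic target is 1 unbroken stretch are shown by their first 30 bases, apart from those of the Actg1 pair and the upstream probe of the Espn pair. Probes whose target is split in the genome are shown whole. The 3 measured Hgf probes read separate stretches of the plus strand of chromosome 5.
Hgf chr5:16077080-16077139: ctacttaatatatgattgggttcaaaagtt
Hgf chr5:16079193-16079252: ctcttgcacattgttttcagtgtgaaagag
Hgf chr5:16124829-16124888: agtgtgtttgaagcatccatggatacatga

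Eya4 was read by 2 probes with unbroken targets and 1 whose 60 bases lie over a genomic span of 2288 bases, all on the minus strand of chromosome 10.
Eya4 chr10:22822975-22823034: gtgacaagcctacattctctgtgaatatgg
Eya4 chr10:22824002-22824061: ggttaccctttccccaatgctatggtggca
Eya4 chr10:22831433-22833720: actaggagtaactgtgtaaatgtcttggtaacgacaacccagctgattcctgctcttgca

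Synj2 had 7 probes on the plus strand of chromosome 17, and the one with the highest ratio, the one with a split target over 1228 bases and the one with the lowest ratio are shown.
Synj2 chr17:6020431-6020490: cttctgtaaaaagaaaaattgagtgaacct
Synj2 chr17:6023798-6025025: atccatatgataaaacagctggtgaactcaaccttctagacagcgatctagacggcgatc
Synj2 chr17:6039552-6039611: ttatgagtctttcatatcataggcccatac

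Actg1 and Espn each had a pair of probes with overlapping targets on the minus strand, and capitals mark the bases in the overlap. The Actg1 pair overlaps by 12 bases and differs there by G9A, counted from 1 at the 5′ end of the overlap with the upstream probe's base first. The Espn pair overlaps by 18 bases with 0 differences.
Actg1 chr11:120208409-120208468: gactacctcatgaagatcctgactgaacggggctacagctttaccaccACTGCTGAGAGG
Actg1 chr11:120208361-120208420: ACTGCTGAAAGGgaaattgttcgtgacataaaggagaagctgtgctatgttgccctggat
Espn chr4:151495230-151495289: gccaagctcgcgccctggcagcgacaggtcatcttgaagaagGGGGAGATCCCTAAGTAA
Espn chr4:151495188-151495247: GGGGAGATCCCTAAGTAAtaggagtctctc

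Array quality was alike in the samples. The noise array had 75.3% of its probes well above background, against 75.2% for the baseline array, the 75th percentile of processed signal was 316 (noise) and 278 (baseline), and no spot was saturated. Each array was divided by its own 75th percentile, and all ratios below are log2 ratios of noise minus baseline after that step. Signals are given as deposited, before it, so a probe with equal signals on both arrays has a ratio below 0. Between probes of a gene this ratio had an SD of 0.27 (9350 genes with several measured probes), while between repeat spots of a probe it had an SD of 0.053. The SD between probes served as the measure of technical spread, and it holds no difference between animals. The median ratio over all measured genes was -0.01, and the central 95% of genes lay between -0.77 and 0.63.

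No deafness gene was at least 2-fold higher or lower after noise. Over all measured genes 1.86% were past this rule (0.611% higher and 1.25% lower), so a count of 0 among 36 members is near the background. At a size rule of 1.5-fold, 1 of the 36 members was higher (Hgf) and 0 were lower, beside 8.01% of measured genes past this rule (3.02% higher and 4.99% lower). Their ratios ran from -0.48 (Crym) to 0.64 (Hgf), with a median of 0.02 beside -0.01 over all measured genes.

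Members above 0 numbered 20 of 36, or 55.6%, beside 47.5% of all measured genes. This split moved with the scaling: it was 24 when each array was divided by its median and 34 when the spike-in spots set the scale, a setting that also raised the median of all genes to 0.21. It was 15 after the normexp background correction, which lowered the median of all genes to -0.06. Most members lay inside the technical spread. Ratios of 29 members were within the SD between probes, 6 were above it (Hgf, Eya4, Coch, Pdzd7, Grxcr1 and Espn) and 1 was below it (Crym), where 13.2% of measured genes were above and 17.4% below. No single measured probe of any member reached 2-fold.

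**Figure D1:**
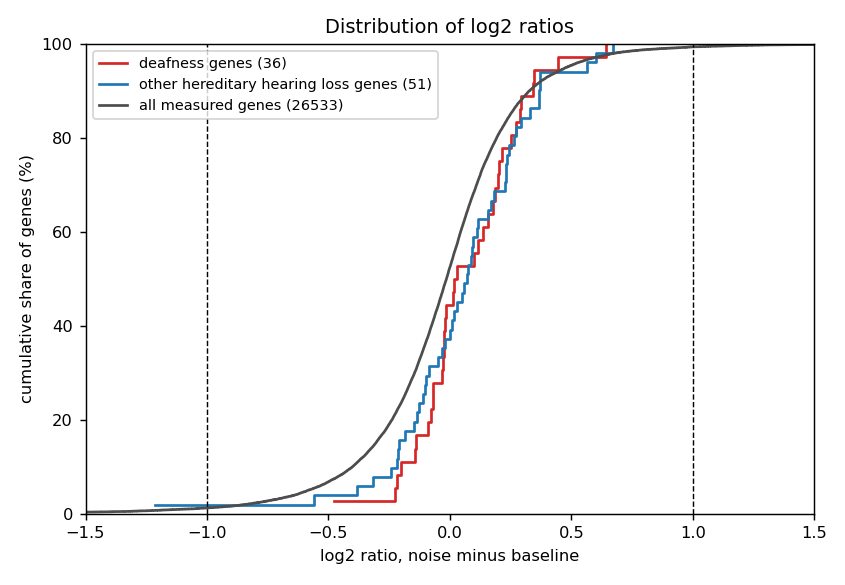
Cumulative share of genes (y axis, percent) at or below each log2 ratio of noise minus baseline (x axis) for 36 deafness genes, 51 other hereditary hearing loss genes and 26533 measured genes, with dashed lines at 2-fold. The deafness genes run from -0.48 to 0.64 and none reaches either line.

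Hgf, the hepatocyte growth factor that signals through the receptor Met, had the highest ratio. Its 3 measured probes gave processed signals of 47.2, 57.1 and 98.3 after noise, against 26.7, 33.9 and 50.5 at baseline. All 3 were brighter after noise, with ratios of 0.64, 0.57 and 0.78 and a gene value of 0.64, or 1.56-fold. One further probe was well above background on the noise array alone, at 8.48 against 3.14 at baseline. That is at least 1.72-fold higher, measurement error aside. A probe detected on 1 array alone can only come out toward that array, so its direction is no support for the Hgf value. The scanner software's spot errors, combined over both arrays, gave the log2 ratios of the 3 measured probes a median error of 0.21. The same error was 0.20 for the bright Coch probe, so it is not particular to Hgf. Its signals were low: Hgf stood at percentile 36.1 of gene signals after noise and 28.2 at baseline, the widest shift of any member at 7.94 points. The ratio was 0.22 after normexp background correction and between 0.64 and 0.86 in the other settings. Markers of B cells and bone marrow were also higher after noise, with 12 of 14 above 0, a median ratio of 0.45 and all 7 B cell genes between 0.43 and 1.22. Their summed scaled signal was 715 after noise and 730 at baseline, and 122 after noise and 98.1 at baseline without S100a9, S100a8 and Ltf, the 3 brightest. Their part in the Hgf value was not tested. Met had signals of 248 after noise and 208 at baseline and a ratio of 0.07.

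P2rx2, the ATP-gated cation channel subunit, was read by probes of 1311 and 135 after noise and 1017 and 116 at baseline, with ratios of 0.18 and 0.04. Ccdc50, an effector of epidermal growth factor receptor signalling, had a gene value of -0.02. Its brightest probes gave -0.04 and -0.02, and its dimmest gave 0.51, with 62.5 after noise and 38.7 at baseline. The measured probes of Hgf and of P2rx2 were all above 0, and those of Ccdc50 lay on both sides of it.

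The 3 transcription factors all had ratios above 0, beside 47.5% of all measured genes, with a median of 0.21 that is the Grhl2 value. Eya4, a coactivator and phosphatase of the eyes absent family, had the second highest ratio of the members at 0.44, or 1.36-fold. Its 2 unbroken-target probes gave 1081 and 419 after noise, against 700 and 265 at baseline, and ratios of 0.44 and 0.48. The split-target probe gave 153 after noise and 161 at baseline, a ratio of -0.25. The Eya4 probes thus disagreed in direction, and the gene value follows the pair that lies farther downstream on the minus strand. Esrrb, an orphan nuclear receptor needed by strial marginal cells, had a bright probe at 2767 after noise and 1981 at baseline (ratio 0.30) and a dim one at 19.1 after noise and 16.2 at baseline (0.05). Grhl2, a grainyhead-like factor of epithelia, had a ratio of -0.01 from its brighter probe (177 after noise, 157 at baseline) and 0.44 from its dimmer one (12.1 after noise, 7.88 at baseline). The Grhl2 value was -0.06 after normexp background correction and -0.01 under the stricter filter and with the brightest probe. Eya4 and Esrrb stayed above 0 in all settings. The dimmest of the 3 Eya4 probes had its lowest ratio, as did the dimmer probe of Esrrb, whereas the dimmer probe of Grhl2 had the higher ratio.

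**Figure D2:**
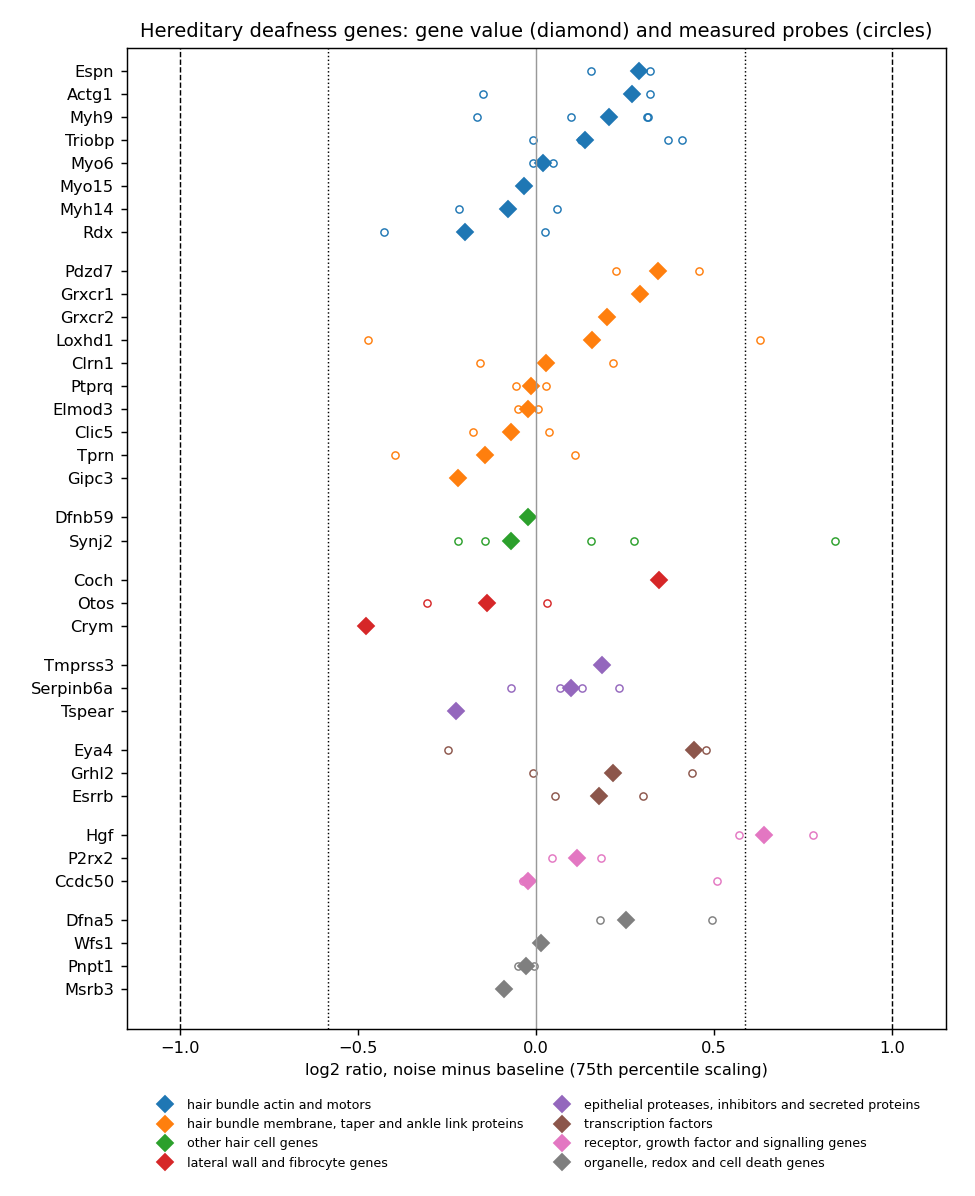
Log2 ratio of noise minus baseline (x axis) for each of the 36 measured deafness genes, grouped by role; diamonds are gene values, open circles the measured probes of genes with several, dotted lines 1.5-fold and dashed lines 2-fold. The Hgf diamond at 0.64 alone lies beyond a 1.5-fold line, and probes of many genes lie on both sides of 0.

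The lateral wall genes held the brightest member signals and the lowest member ratio. Coch, cochlin, an extracellular protein of spiral ligament fibrocytes, gave a signal of 20264 after noise and 14059 at baseline through 1 probe. Its ratio was 0.34, or 1.27-fold, and it stood at percentile 99.1 of gene signals after noise and 98.8 at baseline. Otos, otospiralin, a small secreted fibrocyte protein, differed the other way in its bright probe, with 35749 after noise, 38957 at baseline and a ratio of -0.31. A dim Otos probe at 6.85 after noise and 5.91 at baseline gave 0.03, so that the gene value was -0.14. Both of these fibrocyte genes were strongly detected on either array, and their bright probes lay on opposite sides of 0.

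Crym, mu-crystallin, which binds thyroid hormone, had the lowest ratio of the members. Its 1 probe gave 282 after noise and 345 at baseline, a ratio of -0.48, or 1.39-fold lower. It stood at percentile 67.0 after noise and 72.8 at baseline. The ratio remained below 0 in all settings tried, between -0.48 and -0.26. Markers of several other tissues were also lower after noise. All 20 skeletal muscle markers were below 0, with a median of -0.76 and a summed scaled signal of 14.5 after noise and 26.2 at baseline. Central glia markers had 7 of 9 below 0, a median of -0.79 and sums of 21.3 after noise and 35.6 at baseline, with Opalin above background on the baseline array alone. Central neuron markers had 10 of 12 below 0, a median of -1.02 and sums of 4.38 after noise and 10.2 at baseline, with Slc6a5 and Neurod6 above background on the baseline array alone. Their part in the Crym value was not tested.

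The median ratios of the 5 cochlear marker lists were nearer 0 than these. Genes of these lists need not be particular to cochlear cells: Calb1 stands in both the spiral ganglion and the central neuron list. Hair cell markers had a median of 0.00 (10 above 0 and 10 below), supporting cell and tectorial membrane markers 0.05, stria vascularis markers 0.24, fibrocyte markers 0.00 and spiral ganglion neuron markers -0.11. Of the 20 hair cell markers, 3 were at least 1.5-fold lower (Tmc2 -1.39, Barhl1 -0.81 and Slc26a5 -0.75) and 1 was higher (Pou4f3 0.67). Over all measured genes 4.99% were lower and 3.02% higher by this rule. Every entry of the 5 cochlear lists was measured on both arrays, some near the floor of detection. The hair cell markers Slc26a5 and Atoh1 gave 5.62 and 7.49 after noise, and 8.35 and 8.20 at baseline. The summed scaled signal of the hair cell list was 60.8 after noise and 71.0 at baseline, and 18.3 after noise and 16.7 at baseline without Pvalb, its brightest gene. The lists include the members Coch, Otos and Esrrb. All 12 adipocyte markers were below 0, with sums of 31.2 after noise and 102 at baseline. Median ratios were -2.89 for pituitary markers, -0.45 for middle ear and airway epithelium, -0.32 for choroid plexus, 0.06 for bone and 0.09 for endothelium.

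**Figure D3:**
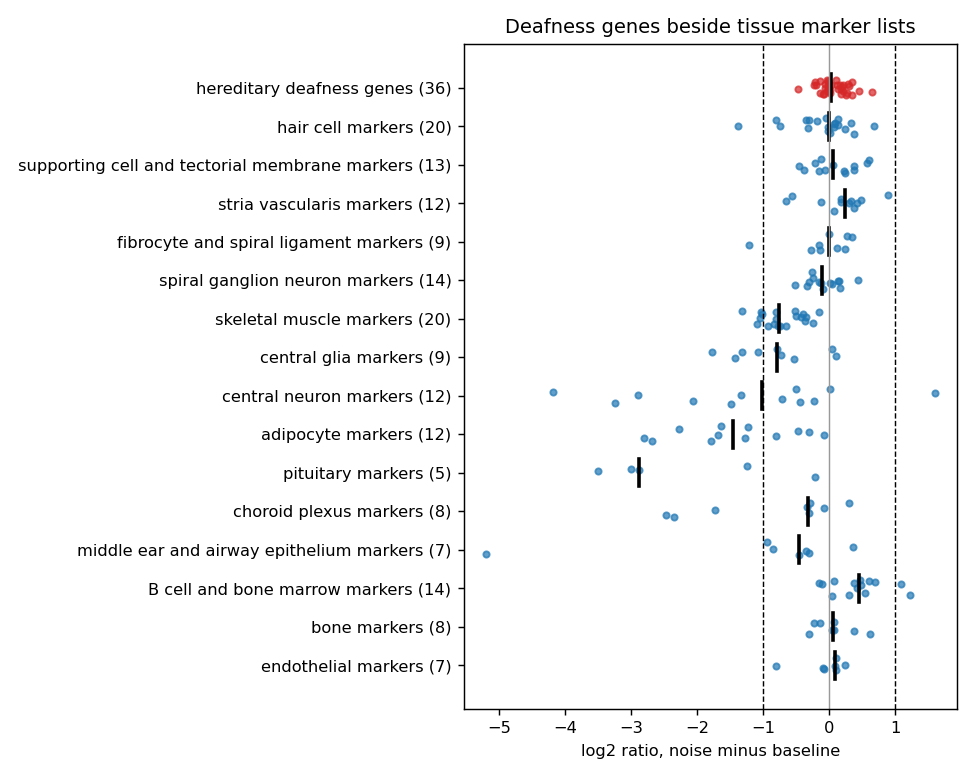
Log2 ratio of noise minus baseline (x axis) for each measured gene of the deafness set (red) and of 15 tissue marker lists (blue), with list sizes in parentheses; black bars are list medians and dashed lines mark 2-fold. The deafness genes and most cochlear lists centre near 0, and stria vascularis markers have a median of 0.24. Muscle, central glia, central neuron, adipocyte, pituitary, choroid plexus and middle ear and airway markers lie mostly below 0.

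The genes of the actin core and its motors had a median ratio of 0.08, with 5 of the 8 measured above 0. Espn, espin, which bundles actin filaments in stereocilia, had 3 measured probes at 165, 148 and 40.1 after noise, against 131, 107 and 28.3 at baseline. All were brighter after noise, with ratios of 0.15, 0.29 and 0.32. The first 2 of these are the overlapping pair shown above and differed by 0.13. A further Espn probe was above background on the noise array alone, at 9.31 against 2.48 at baseline. That is at least 1.89-fold higher, measurement error aside, in the direction that the filter fixes.

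Actg1, the cytoplasmic gamma-actin gene, had probes at 5226, 16768 and 1573 after noise, against 3817, 16368 and 1109 at baseline. Their ratios were 0.27, -0.15 and 0.32, and the gene value of 0.27 became -0.15 when the brightest probe stood for the gene. The first 2 are the overlapping pair, whose ratios differed by 0.42. Actg1 has near-identical relatives among the actin genes, so what each of its probes reads is uncertain.

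The unconventional myosins were close to 0. Myo6, the motor that moves toward the pointed end of actin, had ratios of -0.01, 0.02 and 0.05 at signals of 61.7, 327 and 1366 after noise and 54.7, 284 and 1164 at baseline. Myo15, the motor that delivers cargo to stereocilia tips, gave 440 after noise and 397 at baseline, a ratio of -0.03. Myo3a, a motor with a kinase domain, was well above background on neither array, with probe signals of 3.34 and 1.16 after noise and 2.04 and 1.19 at baseline. It was the only matched member without a value.

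The nonmuscle myosin heavy chains Myh9 and Myh14 had gene values of 0.20 and -0.08. For Myh9 the brightest probe gave 13778 after noise and 11349 at baseline, with a ratio of 0.10, and the other 3 ranged from -0.17 to 0.31. For Myh14 the bright probe gave 2242 after noise and 2296 at baseline, with a ratio of -0.22. Triobp, which bundles actin at the stereociliary rootlet, had 5 probes between -0.01 and 0.41, and the dimmest had the highest ratio. Rdx, radixin, which ties actin to the membrane, had a ratio of -0.43 from a probe at 1778 after noise and 2106 at baseline. A second Rdx probe at 858 after noise and 743 at baseline gave 0.03, and the gene value was -0.20.

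The membrane, taper and ankle link genes of the bundle had a median of 0.01, with 5 of the 10 measured above 0. Pdzd7, a scaffold of the ankle link complex, had the highest ratio among them at 0.34. Its 2 measured probes gave 40.9 and 6.94 after noise, against 30.8 and 4.45 at baseline, with ratios of 0.22 and 0.46. The dimmer one was near the floor of measured probes, another probe, at 0.924 after noise and 1.39 at baseline, was above background on neither array, and the gene value was -0.05 after normexp background correction. Grxcr1 and Grxcr2, glutaredoxin-like proteins of stereocilia, each had 1 dim probe. Grxcr1 gave 19.5 after noise and 14.0 at baseline (0.29), and Grxcr2 gave 52.1 after noise and 40.0 at baseline (0.20). The Grxcr1 value was -0.02 after normexp background correction.

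Loxhd1, a stereociliary protein of repeated PLAT domains, had probes that disagreed more than those of any other member. Their signals were 104, 32.0 and 40.7 after noise, against 59.2, 25.3 and 49.8 at baseline. The ratios of 0.63, 0.16 and -0.47 spanned over 1 log2 unit, and the gene value was the middle one. When the brightest probe stood for the gene, Loxhd1 was past the 1.5-fold rule, and after normexp background correction its value was -0.03.

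Gipc3, a PDZ-domain adaptor of hair cells, had one measured probe at 102 after noise and 105 at baseline, with a ratio of -0.22. Its other probe was above background on the baseline array alone, at 3.52 after noise and 11.4 at baseline. That is at least 2.83-fold lower, measurement error aside, in the direction that the filter fixes. With no filter on dim probes the Gipc3 value became -1.05, the only member value past 2-fold in any setting. Tprn, taperin, at the stereociliary base, had a ratio of -0.40 from its brighter probe (207 after noise, 240 at baseline) and 0.11 from its dimmer one (31.7 after noise, 25.9 at baseline).

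The remaining bundle genes lay close to 0. Ptprq, the receptor-like phosphatase of the shaft connectors, was -0.01, from probes at 142 and 142 after noise and 130 and 123 at baseline. Clic5, a chloride intracellular channel family protein of the taper, was -0.07. Elmod3, an ELMO-domain protein, was -0.02, and Clrn1, clarin 1, a tetraspan membrane protein, was 0.03.

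**Figure D4:**
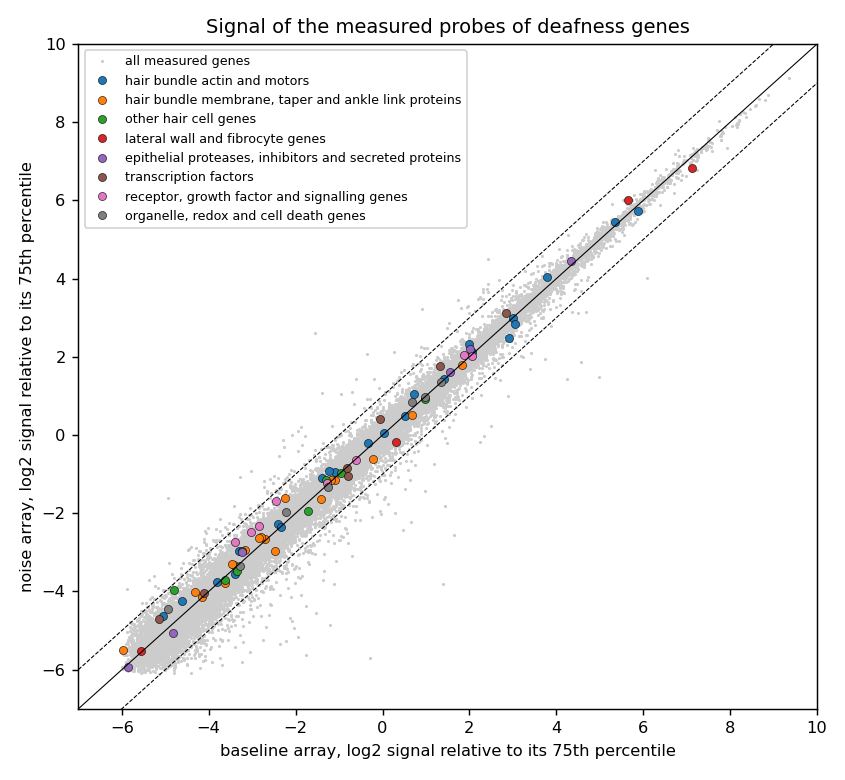
Log2 signal relative to the array's 75th percentile on the noise array (y axis) against the baseline array (x axis) for each measured probe of the deafness genes, coloured by role over all measured genes in grey; the solid line is equality and the dashed lines 2-fold. Every coloured point lies between the dashed lines, from signals near 5 up to the Otos probe at 35749 after noise and 38957 at baseline.

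Synj2, synaptojanin 2, a phosphoinositide phosphatase whose mutation deafens mice, had 7 measured probes and a gene value of -0.07. The dimmest, at 20.4 after noise and 10.05 at baseline, had a ratio of 0.84, the highest of any measured member probe. The brightest, at 593 after noise and 550 at baseline, had -0.07. The others gave 142, 82.4, 40.7, 28.2 and 24.3 after noise, against 112, 84.5, 29.6, 27.4 and 22.4 at baseline, with ratios of 0.15, -0.22, 0.27, -0.14 and -0.07. The dimmest probe of Synj2 thus stood apart from the other 6, which lay between -0.22 and 0.27. Dfnb59, the pejvakin gene now named Pjvk, gave 161 after noise and 144 at baseline, a ratio of -0.02.

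The epithelial proteases and inhibitors showed small ratios. Tmprss3, a transmembrane serine protease, gave 1449 after noise and 1124 at baseline (0.18). Serpinb6a, an intracellular serine protease inhibitor, had 4 probes between -0.07 and 0.23, the brightest at 6962 after noise and 5613 at baseline. Tspear, a secreted protein with EAR repeats, was near the floor of detection at 9.54 after noise and 9.83 at baseline (-0.23). Its second probe was above background on the baseline array alone, at 4.43 after noise and 5.58 at baseline. That is at least 1.38-fold lower, measurement error aside, in the direction that the filter fixes.

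The organelle and cell death genes had a median of -0.01. Wfs1, wolframin of the endoplasmic reticulum, gave 814 after noise and 710 at baseline (0.01). Pnpt1, an exoribonuclease of mitochondria, gave -0.01 and -0.05, and Msrb3, a methionine sulfoxide reductase, -0.09. Dfna5, which encodes gasdermin E and is now named Gsdme, was the one with a larger value, at 0.25.

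The Dfna5 probes did not all read the same strand. The probes on the minus strand gave 569 and 80.7 after noise, against 443 and 59.7 at baseline, with ratios of 0.18 and 0.25. The third, at chr6:50158274-50158333, targets the plus strand and gave 14.4 after noise and 9.01 at baseline, a ratio of 0.49. One more was above background on neither array. The minus-strand pair thus both had ratios above 0 and below the SD between probes of a gene.

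**Figure D5:**
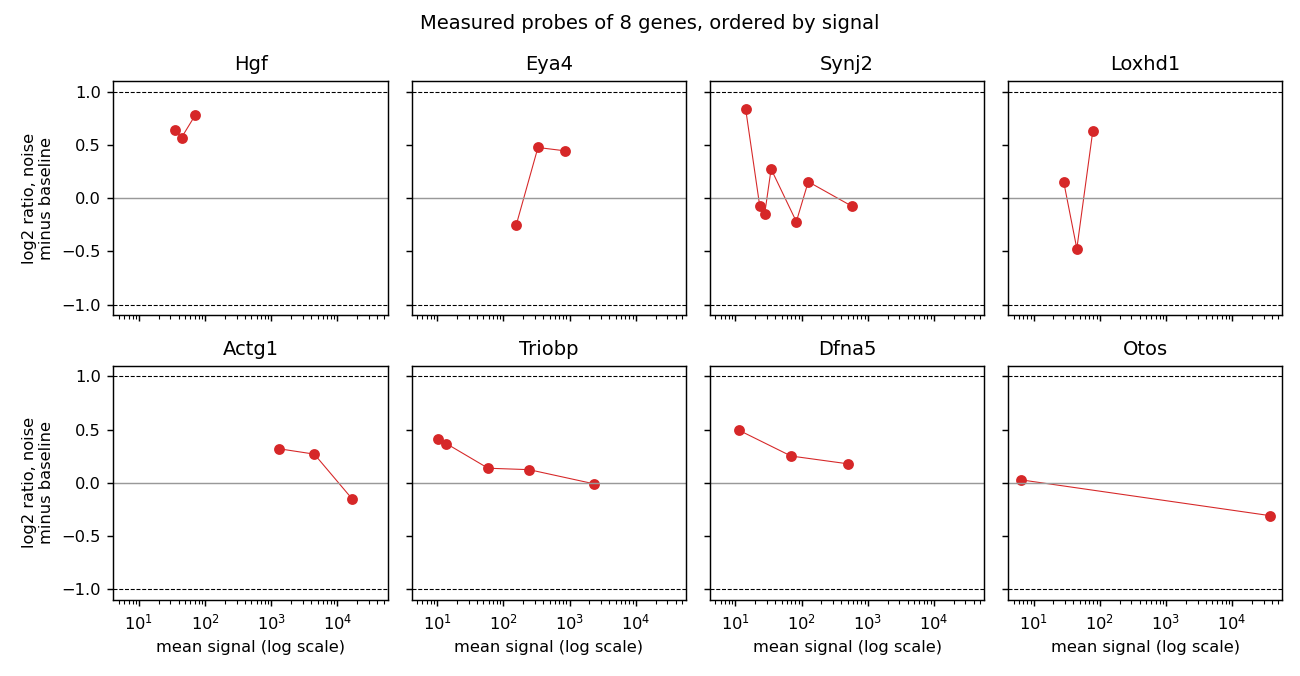
Log2 ratio of noise minus baseline (y axis) against mean processed signal of the 2 arrays (x axis, log scale) for each measured probe of 8 deafness genes chosen after their values were seen; lines join probes in order of signal and dashed lines mark 2-fold. Hgf probes lie together from 0.57 to 0.78, Eya4 and Loxhd1 probes lie on both sides of 0, and the dimmest Synj2 probe at 0.84 stands above its other 6.

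Among the 25 members with at least 2 measured probes, 18 had probes on both sides of 0. In 6 all probes were above 0, and in Pnpt1 all were below it. Probes of Loxhd1 and Synj2 differed by over 1 log2 unit. The dimmest probe had a higher ratio than the brightest in 15 of the 25 members, or 60%, with a median difference of 0.17, beside 50.3% of 9350 genes and a median difference of 0.00. The spread of ratios was wider at low signal. With all measured probes cut into 4 equal bands of signal, its SD was 0.44 in the lowest band and 0.26 in the highest, and these bands held 19 and 23 member probes.

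Signal ranks differed little between the arrays. Over the 36 members, 4 stood more than 5 percentile points apart: Hgf and Eya4 stood higher after noise, and Crym and Loxhd1 stood lower there. The rank uses the median signal over probes, so that of Loxhd1 was lower although its ratio was above 0. Coch and Actg1 were in the top 10% of gene signals on both arrays, and 3 (Pdzd7, Grxcr1 and Tspear) were below the 25th percentile on both. Otos, which held the brightest member probe, stood at percentile 76.2 after noise and 77.8 at baseline, since its rank also takes in its dim probe. These ranks order probe signals and not transcript amounts, since probes differ in how strongly they bind.

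By inheritance, the 11 measured genes known for dominant deafness had a median ratio of 0.20 with 8 above 0, and the 22 known for recessive deafness had a median of 0.01 with 11 above 0. Over all measured genes 47.5% were above 0. Myo6, listed under both kinds, and Otos and Synj2, listed from mice only, were in neither count. Both medians lay within the SD between probes of 0.27, and the counts depend on the choice of probe. With the brightest probe, the dominant genes Actg1 (-0.15) and Grhl2 (-0.01) fell below 0. So did the recessive gene Triobp (-0.01), and no gene of either list rose above 0. The difference between these lists was not tested.

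The members Gpr98, Dfnb31, Diaph1 and Lrtomt had no spot under those symbols. The array uses other names for them, and this match was made after the data had been seen. Under the name Whrn, the whirlin gene Dfnb31 had probes at 1152, 32.7 and 7.81 after noise, against 1542, 32.0 and 10.6 at baseline. Their ratios were -0.60, -0.15 and -0.63, and the gene value of -0.60 was 1.52-fold lower, below that of any member matched by name. The glia, neuron and muscle marker values given beside Crym stand beside Whrn too, and their part in its value was not tested. Gpr98 (as Adgrv1), the giant adhesion receptor of ankle links, had 2 measured probes at 26.0 and 21.0 after noise, against 23.2 and 20.8 at baseline, and a gene value of -0.09. Of its other 5 probes, 1 was above background on the noise array alone, at 5.57 against 2.45 at baseline. That is at least 1.13-fold higher, measurement error aside, in the direction that the filter fixes. The other 4 were above background on neither array, between 0.997 and 1.42 after noise and between 0.877 and 1.23 at baseline. Diaph1 (as Diap1), a formin that nucleates actin, had -0.07, and Lrtomt (as Tomt), a transmembrane methyltransferase, 0.00.

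A further list of 52 hereditary hearing loss genes was set beside the members. The 51 measured on both arrays had a median of 0.07, with 32 above 0, beside 47.5% of all measured genes above 0. Pou3f4, the fibrocyte POU factor, was the only one past 2-fold, with low signals of 20.8 after noise and 42.6 at baseline. Its ratio was -1.22, or 2.32-fold lower. Over all measured genes 1.86% were past 2-fold, so a count of 1 among 51 is near the background. Past 1.5-fold in the other direction, beside 3.02% of measured genes, were Pou4f3 and Otoa. Pou4f3, the hair cell POU factor, had 57.3 after noise and 31.7 at baseline (0.67). Otoa, otoancorin of the tectorial membrane attachment, had 256 after noise and 149 at baseline (0.60). Pou3f4, Pou4f3 and Otoa each had 1 measured probe.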

How the data were processed

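Total RNA from noise-exposed and baseline mouse cochleae was measured on 1 array each. The scanner files deposited by the authors give the intensity of each spot from Agilent Feature Extraction 11.5.1.1, per the file headers, which subtracted background and left the arrays unscaled. A value table deposited by the authors is on the log2 scale. Its columns equalled log2 of each array's processed signal minus a constant of 8.30 (noise) or 8.12 (baseline), with no centring per gene, column medians of -2.81 and -2.79, and a scale and direction that match the scanner files, so the table was used as an alternative only.

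Outlier-flagged spots (60 on the noise array, 58 on the baseline array) and control spots were left out, repeat spots were averaged as log2 values (56604 probes), and each array's 75th percentile was subtracted. A probe was measured where it was well above background on both arrays (41659 probes), and a gene took the median ratio of its measured probes. For a probe above background on 1 array, the bright value was divided by the dim value or by the lowest value well above background, whichever was higher, which gives the at-least folds. Their direction is fixed by the array that detected the probe, and they leave out measurement error. Current names came from a RefSeq table of assembly GRCm38.p6, and coordinates are those of the file headers' mm9. A summed scaled signal is the sum over a list of gene signals divided by the array's 75th percentile. Scripts ran in Python 3.11.15 (numpy 2.4.6, pandas 2.3.3, matplotlib 3.10.9) and in R 4.3.3 with limma 3.58.1, and the gene step was tested on simulated data.

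With 1 array per group no test was made and the number of arrays limits the precision. Size rules of 2-fold and 1.5-fold took the place of a test. All members are accounted for. Every probe is given for members past 1.5-fold, for members with a probe above background on 1 array only, for the 4 highest and 4 lowest ratios and for members with probes over 1 log2 unit apart. Other hearing loss genes past 1.5-fold are named. The protein table that the planned choice of printed probes needs was not used here, so probes were chosen by disagreement or overlap. The members and gene lists were chosen with earlier results of these data known. Alternatives covered the background correction, the scaling, the probe filter, the choice of probe, the value table and the member names. Sums without the brightest genes of a list were added after the data were seen.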

Additional observations from a re-analysis of the deposited data

How the results depend on the processing

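The median ratio of the members stayed between -0.02 (normexp background correction) and 0.24 (spike-in scaling). The median of all genes was -0.06 with normexp and 0.21 with spike-in scaling. For the other hearing loss genes the median lay between -0.00 and 0.29 in the same 2 settings. Members above 0 numbered 34 with spike-in scaling, against 20. Members at least 1.5-fold higher numbered 0 with normexp, where Hgf was 0.22, 2 with the brightest probe (Hgf and Loxhd1, 0.63) and 2 with spike-in scaling (Hgf 0.86 and Eya4 0.67), against 1. With no filter on dim probes 1 member, Gipc3 at -1.05, was at least 1.5-fold lower and 1 at least 2-fold lower, against 0 each. Matching members through other array names, a choice made after seeing the data, put 1 member (Whrn) at least 1.5-fold lower. Pdzd7 was -0.05 with normexp. Of 286 alternative values of the 36 members in the 8 planned settings, 6 moved by over the SD between probes: those given here for Hgf (normexp), Loxhd1, Gipc3 and Pdzd7, Grxcr1 with normexp (-0.02) and Actg1 with the brightest probe (-0.15). Many of the 286 could not move that far. Median scaling, spike-in scaling and the value table shift every gene by the same amount, below this SD. Members with 1 measured probe keep their value with the brightest probe. The count is thus no measure of robustness. In the main setting and all 8 others, 13 members were above 0 and Crym was below 0. Part of these moves follows from the settings. Spike-in scaling shifts all genes by construction. The normexp setting added an offset of 50 to every signal, which shrinks the ratios of dim probes before scaling. The brightest-probe and no-filter settings change which probes enter a gene value. Beyond this, the cause of the moves was not tested. Before scaling, noise minus baseline ran from -0.20 to 0.40 over the 8 spike-in probes. Grxcr1 and Tspear had no measured probe under the stricter filter, which left 34 members. No paired analysis was possible because a single array per group leaves nothing to pair, and no setting without a replicate could be run. Low signal limits Hgf, Pdzd7, Grxcr1, Tspear and the dim probes of Synj2, Grhl2 and Otos.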
